A study of Mus musculus with 20 samples.

Results

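The genes described here are markers of T cells and natural killer (NK) cells, measured in bulk RNA of whole mouse liver. They were taken by gene name from the count table, 9 of its 48440 genes: 6 T cell genes (Cd3e, Cd3d, Cd3g, Cd4, Cd8a and Lck) and 3 NK cell genes (Ncr1, Klrb1c and Gzma). The livers came from female, wild-type C57BL/6 mice (C57BL/6J in the study's methods), 8 weeks old, that received corticosterone (CORT, the main glucocorticoid of rodents) or vehicle for 5 weeks. All mice were also injected intraperitoneally with an antibody, either a monoclonal antibody against acyl-CoA binding protein (αACBP, labelled DBI after the other name of the protein) or an IgG2a isotype control, so that the control mice were antibody-treated as well. Each of the 4 groups held 5 livers, which are named by antibody and treatment as Isotype + Vehicle or Isotype + CORT for the control antibody, and likewise as αACBP + Vehicle or αACBP + CORT. The treatment models Cushing's syndrome, the state of long-lasting glucocorticoid excess, and the comparisons ask how CORT affects the liver with and without neutralization of ACBP. In RNA of a whole liver, fewer cells of a type and less RNA per cell cannot be told apart.

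T cells recognize antigen through the T cell receptor, which signals through the CD3 chains and the kinase LCK, while CD4 and CD8 bind the MHC molecules that present the antigen. NK cells carry activating and inhibitory receptors instead, and both NK cells and cytotoxic T cells kill by releasing granules that hold granzymes. The liver is rich in NK and other innate lymphocytes that reside in its sinusoids, and glucocorticoids are widely used as drugs because they suppress lymphocytes.

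The promoters of the members are shown because the T and NK cell genes had fold changes of the same sign in CORT-treated livers. They differed in a short motif, which was itself chosen after the sequences had been seen. Sequences came from the RefSeq promoter table of build GRCm38.p6, in which 8 of the 9 genes matched by symbol, Cd4 being the exception. Each run covers the 250 bases before the annotated start, 5′ to 3′ on the strand of the gene. Capitals mark the RUNX core motif TGTGGT, searched on both strands (ACCACA on the other). RUNX factors take part in the development of T and NK cells. The windows are chr7:4337465-4337714 on the plus strand for Ncr1, chr6:128788642-128788891 on the minus strand for Klrb1c, chr13:113100982-113101231 on the minus strand for Gzma and chr9:45009612-45009861 on the minus strand for Cd3e.
Ncr1: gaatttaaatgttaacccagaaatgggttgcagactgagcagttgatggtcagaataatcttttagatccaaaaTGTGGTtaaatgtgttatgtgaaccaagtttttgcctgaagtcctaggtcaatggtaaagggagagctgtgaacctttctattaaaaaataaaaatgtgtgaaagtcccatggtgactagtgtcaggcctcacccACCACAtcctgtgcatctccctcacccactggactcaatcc
Klrb1c: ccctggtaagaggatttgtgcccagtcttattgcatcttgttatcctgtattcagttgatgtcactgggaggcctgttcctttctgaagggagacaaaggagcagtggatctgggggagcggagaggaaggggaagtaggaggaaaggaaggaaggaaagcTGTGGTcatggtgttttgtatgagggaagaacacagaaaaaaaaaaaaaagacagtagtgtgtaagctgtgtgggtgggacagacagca
Gzma: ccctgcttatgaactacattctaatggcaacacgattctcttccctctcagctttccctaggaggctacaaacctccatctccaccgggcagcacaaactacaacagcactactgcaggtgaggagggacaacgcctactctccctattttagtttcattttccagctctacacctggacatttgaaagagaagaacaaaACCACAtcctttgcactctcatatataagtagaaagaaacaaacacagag
Cd3e: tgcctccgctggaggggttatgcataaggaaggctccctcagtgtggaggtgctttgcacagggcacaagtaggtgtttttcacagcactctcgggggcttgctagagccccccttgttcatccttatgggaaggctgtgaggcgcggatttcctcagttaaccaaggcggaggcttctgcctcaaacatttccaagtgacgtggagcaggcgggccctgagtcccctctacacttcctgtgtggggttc

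The motif stood in the windows of 3 of 3 NK cell genes, with 2 matches before Ncr1, and of 1 of the 5 T cell genes in the table, which was Lck. Over all 32851 promoters of the table, 14% held it. That share is per window, whereas the members are counted per gene. Lck and Ncr1 each have 2 windows in the table, and Lck held the motif in 1 of them. The windows of Ncr1 overlap and both held it. The T-box motif TCACAC was found before Lck and Ncr1 and in 12.3% of all promoters. The short glucocorticoid receptor motif AGAACA was found before Cd8a, Klrb1c and Gzma and in 16.1% of all promoters. The motifs were chosen after the sequences had been seen, none of these matches overlapped another motif, and a match is only a run of letters.

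Between 14934926 and 20299999 read pairs were counted on genes in each liver, and the smallest number read as detectable, 3 counts, corresponded to 0.145 to 0.205 CPM (counts scaled to library size) depending on the liver. CPM values were normalized by TMM, whose factors lay between 0.880 and 1.29, the highest in αACBP + Vehicle liver 5, the liver with the fewest genes detected (14613). The labelled tissue matched its markers, since 7 hepatocyte genes such as Alb, which encodes albumin, summed to at least 38187 CPM in every liver. That lowest sum stood apart and was again αACBP + Vehicle liver 5, the next lowest being 68058 CPM in Isotype + Vehicle liver 4. The members were scarce beside the hepatocyte genes, at 0 to 163 counts each per liver. Over the 20 livers, 7 of the 9 members passed the filter on low counts and were tested, 5 of 6 T cell genes and 2 of 3 NK cell genes. Cd8a and Ncr1 did not pass. The counts of a member within a group scattered more widely than counting error, which would give a variance equal to the mean: the median ratio of variance to mean was 9.54 for the members (range 8.35 to 20.3), beside 12.3 over 5305 genes of similar mean count. Counting intervals would therefore be too narrow, and the spread between livers was used as the error throughout. The livers are labelled as biological replicates.

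CORT under isotype was compared with vehicle first. The T and NK cell genes were lower on average with CORT, and no member passed the edgeR test, while DESeq2 called Cd3d. Summed over the 6 T cell genes, the level was 8.98 ± 2.54 CPM in Isotype + Vehicle and 2.25 ± 1.39 CPM in Isotype + CORT livers (SD, n = 5 each), so that the CORT mean was 25.1% of the vehicle mean. Summed over the 3 NK cell genes it was 2.67 ± 1.02 CPM and 0.750 ± 0.783 CPM, or 28.1%. With 1 liver left out, the NK cell percentage ran from 17.6% (without Isotype + CORT liver 3) to 35.1% (without liver 1 or liver 2 of that group). The T cell percentage ran from 21.6% to 31.2%. The T cell sums of the groups did not overlap, with 5.81 CPM as the lowest vehicle liver and 3.53 CPM as the highest CORT liver, whereas the NK cell sums overlapped, with 1.25 CPM as the lowest vehicle liver and 1.87 CPM as the highest CORT liver. That overlap rested on 2 livers, since the NK cell sums no longer overlapped without Isotype + Vehicle liver 4 or without Isotype + CORT liver 3. No test was run on sums. The T cell sum rested in large part on Lck. Without Lck the means were 5.20 ± 1.61 CPM and 1.05 ± 0.615 CPM, again without overlap.

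**Figure D1:**
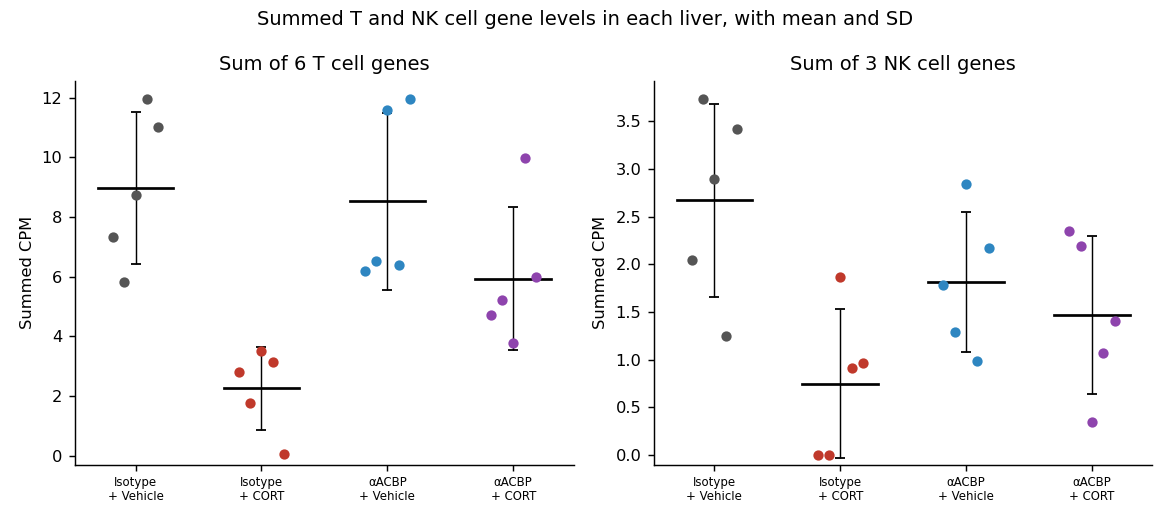
Summed CPM of the 6 T cell genes (left) and the 3 NK cell genes (right) in each liver (points) of the 4 groups, with the mean (thick bar) and SD (thin bar). All Isotype + CORT livers lie at or below 3.53 CPM for the T cell genes, under every liver of the other groups, while the NK cell sums of all groups overlap.

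The 3 CD3 chains assemble with the T cell receptor and carry its signal into the cell. Cd3e, the epsilon chain, had 7, 20, 4, 35 and 18 counts in the Isotype + Vehicle livers 1 to 5 and 21, 0, 16, 4 and 0 counts in the Isotype + CORT livers. The highest CORT liver exceeded 4 of the vehicle livers, so the groups overlapped widely. The mean level was 1.02 ± 0.781 CPM and 0.510 ± 0.624 CPM, with a log2 fold change of -0.997 (SE 1.38, edgeR adjusted p = 0.833).

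Cd3d, the delta chain, had 23, 1, 39, 22 and 31 counts with vehicle and 0, 0, 5, 0 and 0 with CORT. It was detected in a single CORT liver, and only vehicle liver 2 was as low as that group. The log2 fold change of -4.41 (SE 1.63) was the largest among the 7 tested members (edgeR adjusted p = 0.146, unadjusted p = 0.0116). Cd3d was the only member whose call depended on the tool, since DESeq2 gave -4.59 with an adjusted p of 0.0435.

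Cd3g, the gamma chain, had 15, 15, 28, 46 and 21 counts with vehicle and 0, 17, 0, 7 and 0 with CORT. The normalized levels did not overlap, as the 17 counts of CORT liver 2, a deeper library, stood at 0.851 CPM under the lowest vehicle liver at 0.903 CPM. The mean was 1.48 ± 0.816 CPM and 0.261 ± 0.384 CPM, with a log2 fold change of -2.45 (SE 1.18, edgeR adjusted p = 0.313).

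Cd4 and Cd8a encode the coreceptors that mark the helper and the cytotoxic T cell lineage, and CD4 is also present on some myeloid cells. Cd4 had 20, 3, 12, 11 and 31 counts with vehicle and 0, 0, 0, 10 and 0 with CORT. It was at 0 in 4 of 5 CORT livers and present in all vehicle livers, with a log2 fold change of -2.76 (SE 1.66, edgeR adjusted p = 0.466). Cd8a had 16, 11, 6, 0 and 6 counts with vehicle and 0, 0, 8, 0 and 1 with CORT. CORT liver 3 was above 3 of the vehicle livers, and the means were 0.460 ± 0.369 CPM and 0.0984 ± 0.186 CPM.

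Lck, the kinase that phosphorylates the CD3 chains, was the most abundant member. It had 41, 45, 83, 77 and 77 counts with vehicle and 20, 18, 37, 27 and 0 with CORT. Every CORT liver lay under every vehicle liver. The mean was 3.77 ± 1.09 CPM and 1.20 ± 0.786 CPM, with a log2 fold change of -1.64 (SE 0.64), the smallest SE of the members (edgeR adjusted p = 0.171, unadjusted p = 0.0153).

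Of the NK cell genes, Ncr1 encodes the activating receptor NKp46. It had 3, 28, 16, 0 and 12 counts with vehicle and 0 in all 5 CORT livers, where 3 counts would have been 0.150 to 0.205 CPM. Vehicle liver 4 was at 0 as well, so the groups met at that value and no fold change is given.

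Klrb1c encodes NK1.1, a surface receptor used as a marker of NK cells in C57BL/6 mice, though not exclusive to them. It had 10, 12, 12, 20 and 22 counts with vehicle and 0, 0, 13, 14 and 0 with CORT. The 2 CORT livers with counts lay within the range of the vehicle livers, and the log2 fold change was -1.47 (SE 1.26, edgeR adjusted p = 0.671). In the GENCODE annotation 12.9% of the exon bases of Klrb1c are shared with Gm44511 on the same strand and 9.22% of its 100-base words occur in another gene, so part of its counts is uncertain.

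Gzma encodes granzyme A, a protease of the cytotoxic granules. It had 21, 21, 29, 0 and 23 counts with vehicle and 0, 0, 22, 0 and 15 with CORT. Here vehicle liver 4 and 3 CORT livers were at 0, and the log2 fold change was -1.32 (SE 1.49, edgeR adjusted p = 0.776).

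**Figure D2:**
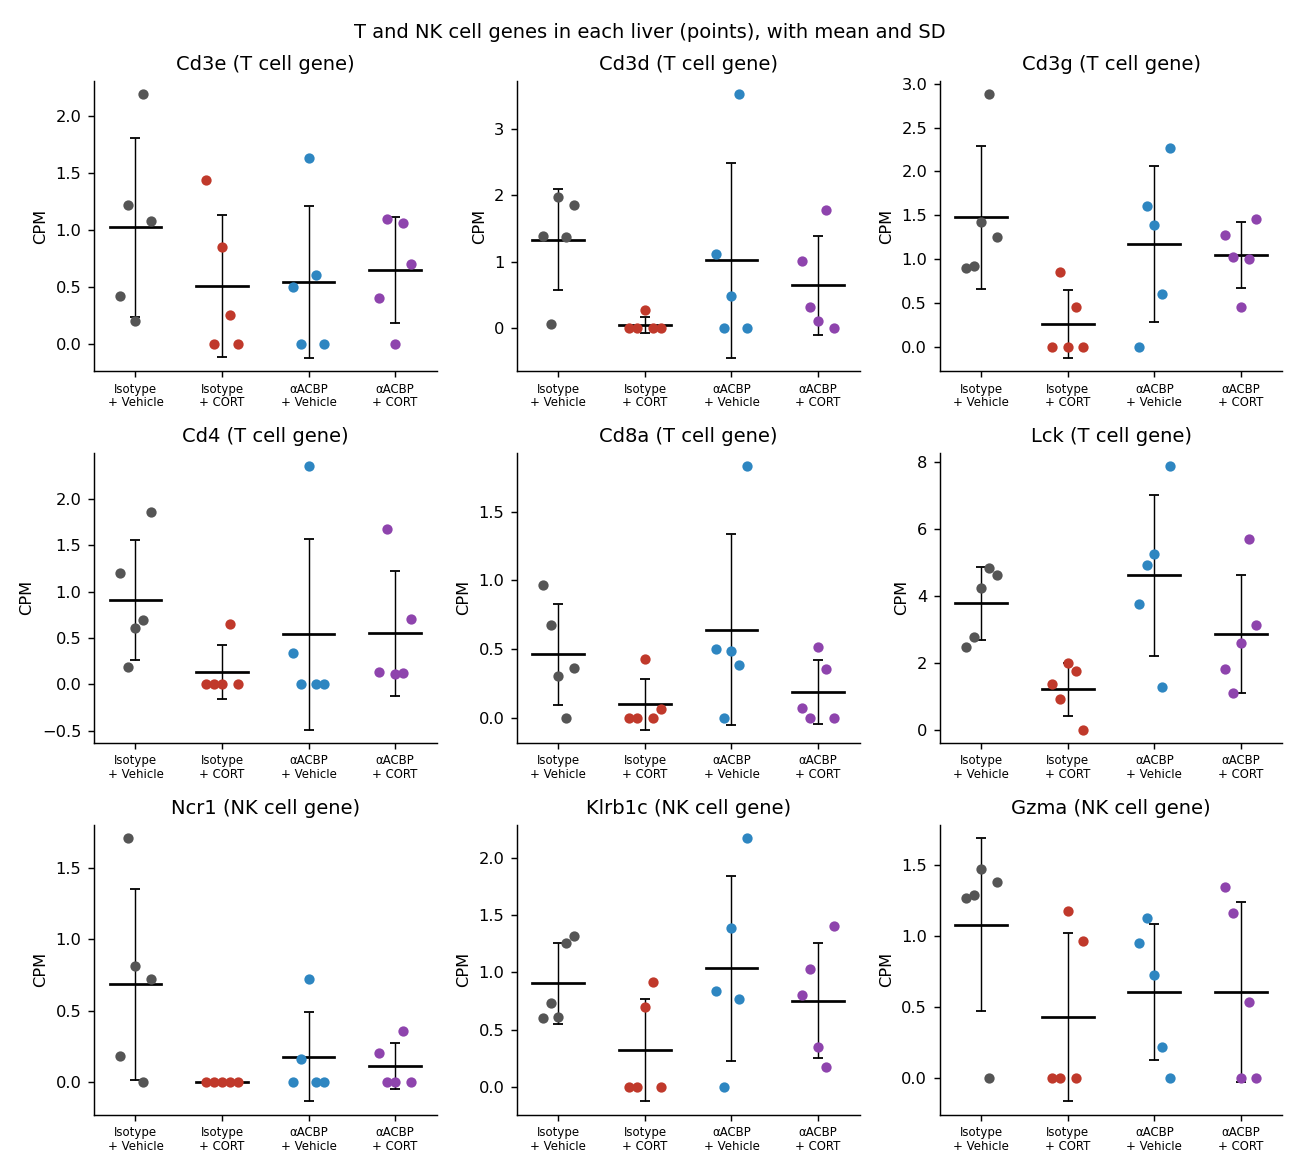
CPM of each of the 9 genes in every liver (points) of the 4 groups, with the mean (thick bar) and SD (thin bar), each panel with its own linear axis. The Isotype + CORT livers do not overlap with the Isotype + Vehicle livers for Cd3g and Lck, and 5 of 5 Isotype + CORT livers are at 0 for Ncr1.

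Thus 0 of 7 tested members were called lower by edgeR at the limits used throughout (adjusted p of at most 0.05 and a 2-fold difference or more, that is 1 on the log2 scale), beside 1.43% of the 16071 genes tested. DESeq2 called 1 member and limma voom 0. In either direction, DESeq2 called 527 of all genes, against 312 by edgeR. At unadjusted p, edgeR gave 3 of 7 lower (Cd3d, Cd3g and Lck), beside 4.09% of all genes. The groups did not overlap for Cd3g and Lck, 2 of 7, beside 3.02% of all genes that were lower without overlap. Two-sided exact permutation tests of the mean log2 CPM of single members, 5 against 5 livers and not adjusted for the number of tests, gave p = 0.00794 for Cd3g and for Lck, the smallest value this design allows. They gave exact p = 0.0159 for Cd3d, 0.0238 for Cd4, 0.0317 for Ncr1, 0.0714 for Klrb1c, 0.0794 for Gzma, 0.127 for Cd8a and 0.190 for Cd3e. The median log2 fold change was -2.45 over the 5 tested T cell genes and -1.39 over the 2 tested NK cell genes, beside 0.0022 over all genes tested. These medians are descriptions, since a gene with counts in 1 group alone can pass the filter through that group.

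The livers with the fewest member counts were in the Isotype + CORT group. Between 3 and 7 of the 9 members were at 0 in each of its livers, with a median of 7, against 0 to 3 in Isotype + Vehicle, with a median of 0. Isotype + CORT liver 5 had 1 T cell count in all and 15 NK cell counts, all of Gzma. Livers 1 and 2 of that group had the opposite composition, with 41 and 35 T cell counts and 0 NK cell counts. Leaving out any single liver kept the log2 fold change of each tested member under 0, and Lck stayed between -1.90 and -1.33. Cd3d ranged from -7.52 to -4.11 and Cd4 from -6.99 to -2.33, the lower ends being those without the 1 CORT liver in which the gene was detected, where all remaining CORT livers are at 0 and the fitted value is no bound.

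αACBP was next compared with isotype in CORT-treated mice. All 7 tested members had a higher mean with αACBP, and none was called by edgeR, DESeq2 or voom. The T cell sum was 5.94 ± 2.40 CPM in αACBP + CORT livers (SD, n = 5), 2.63-fold that of Isotype + CORT, and the lowest αACBP liver, at 3.79 CPM, lay above the highest isotype liver at 3.53 CPM. Without Lck the groups overlapped, unless αACBP + CORT liver 3 was left out. The NK cell sum was 1.47 ± 0.826 CPM, 1.96-fold, with overlap. With 1 liver left out, it ran from 1.57-fold (without Isotype + CORT liver 1 or liver 2) to 3.13-fold (without Isotype + CORT liver 3). The T cell sum ran from 2.12-fold to 3.07-fold.

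Among the CD3 chains, Cd3g had 19, 16, 8, 17 and 27 counts in the αACBP + CORT livers. It was thus present in all 5, against 2 of 5 Isotype + CORT livers, and its log2 fold change was 1.95 (SE 1.17, edgeR adjusted p = 0.538). Cd3d had 15, 5, 2, 30 and 0 counts and a log2 fold change of 3.36 (SE 1.58, edgeR adjusted p = 0.374, unadjusted p = 0.0421). Liver 4 held most of its counts and liver 5 held none. Cd3e had 6, 17, 0, 18 and 13 counts, in the range of the Isotype + CORT livers, and a log2 fold change of 0.36 (SE 1.38, edgeR adjusted p = 0.970).

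Cd4 had 2, 26, 2, 2 and 13 counts and a log2 fold change of 2.04 (SE 1.63, edgeR adjusted p = 0.703). It was detected in all 5 livers, yet in 3 of them with 2 counts, under the limit of 3. Cd8a had 1, 0, 9, 6 and 0 counts and was at 0 in 2 of 5 livers, against 3 of 5 Isotype + CORT livers. Lck had 27, 17, 45, 96 and 58 counts and a log2 fold change of 1.25 (SE 0.63, edgeR adjusted p = 0.428), with livers 1 and 2 inside the range of the Isotype + CORT livers.

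Of the NK cell genes, Klrb1c had 12, 16, 6, 3 and 26 counts and was detected in all 5 livers. Its log2 fold change was 1.21 (SE 1.25, edgeR adjusted p = 0.804). Gzma had 20, 18, 0, 9 and 0 counts, with a log2 fold change of 0.49 (SE 1.47, edgeR adjusted p = 0.962) that became -0.03 without αACBP + CORT liver 1. Ncr1 had 3, 0, 0, 6 and 0 counts, so that it was at 0 in 3 of 5 livers.

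By edgeR 0 of 7 tested members were called higher, beside 0.504% of all genes, and by DESeq2 and limma voom 0 as well. At unadjusted p, edgeR gave 1 of 7 (Cd3d), beside 2.59%. DESeq2 gave 3 and voom 1, for which no share over all genes at that limit is given, so these counts cannot be judged. At adjusted p, DESeq2 called 211 of all genes in either direction, edgeR 96 and voom 57. For 0 of 7 did the groups separate, beside 1.91% of all genes higher without overlap. Unadjusted exact permutation tests of single members gave p = 0.0238 for Cd3g, 0.0476 for Cd4 and 0.0794 for Lck. The other exact p values were 0.0952 for Cd3d, 0.103 for Klrb1c, 0.270 for Ncr1, 0.524 for Cd3e, 0.548 for Cd8a and 0.722 for Gzma. That of Cd4 depended on the prior count added before the logarithm, with exact p = 0.127 at a prior of 1 in place of 0.5. This comparison shares the Isotype + CORT livers with the previous one, so the opposite signs are not independent.

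**Figure D3:**
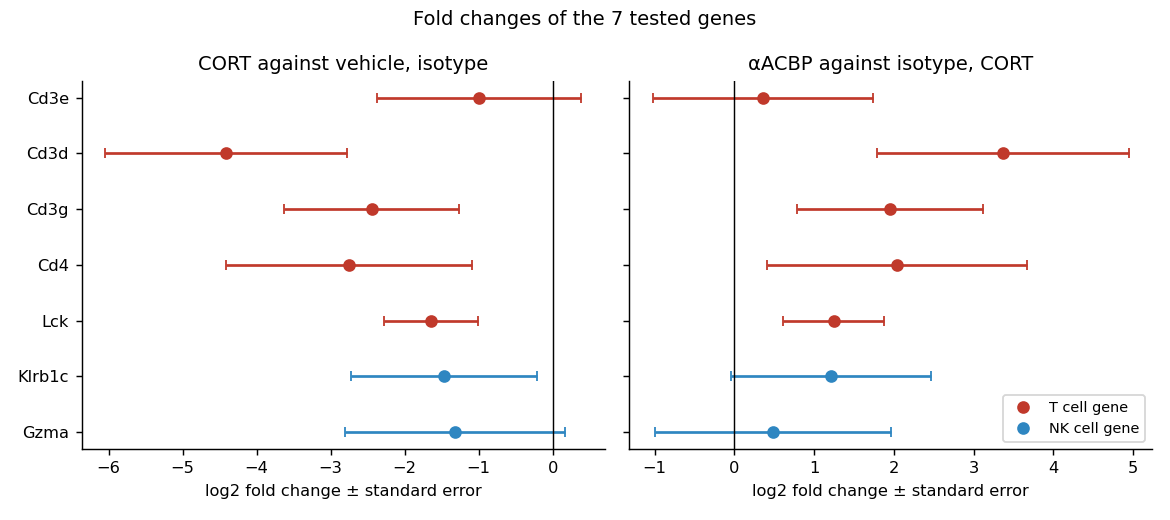
log2 fold changes (points) with their standard errors (bars) of the 7 tested genes for CORT against vehicle under isotype (left) and αACBP against isotype under CORT (right), T cell genes in red and NK cell genes in blue. All points lie under 0 on the left and above 0 on the right, from -4.41 for Cd3d to 3.36 for the same gene, and both panels use the Isotype + CORT livers.

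The αACBP + Vehicle livers differed widely among themselves. Lck had 67, 92, 87, 23 and 163 counts there, Cd3g 0, 30, 23, 11 and 47, and Cd3d 20, 0, 8, 64 and 0. Cd3e had 9, 0, 27, 11 and 0 counts, Cd4 6, 0, 39, 0 and 0, and Cd8a 9, 0, 8, 7 and 38. For each of these genes a single liver held a large part of the counts, which was liver 3 for Cd3e and Cd4, liver 4 for Cd3d and liver 5 for Cd3g, Cd8a and Lck.

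For the NK cell genes in αACBP + Vehicle, Klrb1c had 15, 0, 23, 14 and 45 counts, Gzma 17, 21, 12, 4 and 0, and Ncr1 0, 3, 12, 0 and 0. The livers highest for Klrb1c and for Gzma differed, and liver 5 with the most Klrb1c had no Gzma. The T cell sum was 8.53 ± 2.97 CPM and the NK cell sum 1.81 ± 0.730 CPM (SD, n = 5).

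With αACBP, CORT against vehicle gave log2 fold changes from -0.69 (Lck, SE 0.62) to 0.26 (Cd3e, SE 1.37), and 0 of 7 tested members were called by edgeR in either direction, beside 0.212% of all genes. At unadjusted p it was also 0, beside 2.46%. The T cell sum with CORT was 69.6% and the NK cell sum 81.1% of that with vehicle, with overlap in both, which for the T cell sum ended without αACBP + CORT liver 4. Among vehicle-treated mice, αACBP against isotype gave -0.90 (Cd3e, SE 1.38) to 0.29 (Lck, SE 0.61), with 0 of 7 called beside 1.30% and 0 at unadjusted p beside 3.34%. αACBP + CORT against Isotype + Vehicle gave -1.04 (Cd3d, SE 1.39) to -0.26 (Klrb1c, SE 1.22), with 0 of 7 called beside 0.0684% and 0 at unadjusted p beside 1.39%. DESeq2 gave 0 of 7 at unadjusted p in these 3 comparisons and no adjusted p for the members, and voom called 0.

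Whether the effect of CORT differed between the antibodies was tested by the interaction term. It was positive for all 7 tested members, from 0.96 (Lck, SE 0.87) to 3.74 (Cd3d, SE 2.06), and 0 were called by edgeR, beside 0.143% of all genes, the lowest adjusted p being 0.553. At unadjusted p it was 0 by edgeR, beside 4.92%. DESeq2 gave 0 and voom 1, for which no share over all genes is given, so these counts cannot be judged. A difference between the antibodies in the effect of CORT was thus not shown for any member.

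T and NK cell genes were also set against each other within each liver, as the log2 ratio of Cd3e to Ncr1 counts with 0.5 added to both. It was 1.09 ± 3.05 in Isotype + Vehicle, 2.73 ± 2.63 in Isotype + CORT, 1.42 ± 3.07 in αACBP + Vehicle and 2.46 ± 2.33 in αACBP + CORT livers (SD, n = 5 each). The difference of 1.64 between CORT and vehicle under isotype was smaller than the spread of either group (two-sided exact permutation p = 0.397). αACBP under CORT differed by -0.27 (exact permutation p = 0.905), CORT under αACBP by 1.04 (exact permutation p = 0.508) and αACBP under vehicle by 0.33 (exact permutation p = 0.873), and over these 4 tests each adjusted p was 0.905. Ncr1 was at 0 in 12 of the 20 livers, among them all 5 Isotype + CORT livers. There the ratio is set by the added 0.5, the Cd3e count and the depth of the library, and livers without counts of either gene score 0. These tests therefore show neither a shift between T and NK cell genes nor the lack of one. Per kilobase of exon, the T cell genes made up 65.8 ± 16.4% of the summed members in Isotype + Vehicle, 66.2 ± 40.7% in Isotype + CORT, 76.2 ± 7.94% in αACBP + Vehicle and 73.4 ± 16.6% in αACBP + CORT livers.

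On that per-length scale, the level in Isotype + Vehicle livers was highest for Lck, at 1.20 ± 0.346 CPM per kilobase (SD, n = 5). Gzma followed at 0.699 ± 0.394, then Cd3d at 0.515 ± 0.294, Cd3g at 0.451 ± 0.249 and Ncr1 at 0.439 ± 0.430 CPM per kilobase. Klrb1c had 0.283 ± 0.111, Cd3e 0.251 ± 0.191, Cd4 0.202 ± 0.143 and Cd8a 0.127 ± 0.101 CPM per kilobase. Of the neighbours in this order, Lck and Gzma differed by more than the SD of either, Ncr1 and Klrb1c by more than the SD of Klrb1c but less than that of Ncr1, and the others by less than the SD of either. In Isotype + CORT livers Lck was again highest at 0.382 ± 0.250 and Gzma next at 0.277 ± 0.383 CPM per kilobase, with Ncr1 at 0.

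The median correlation between members from liver to liver was low, while single pairs reached up to 0.62. Pearson's r of log2 CPM over the 20 livers had a median of 0.29 over the 15 pairs of T cell genes, 0.14 over the 3 NK pairs and 0.37 over the 18 mixed pairs. The pairs ranged from -0.03 to 0.55, from 0.06 to 0.62 and from -0.12 to 0.60 in the same order. After removal of the group means the medians were 0.03, -0.13 and 0.15. These points share libraries and many zeros, and weak values in such sparse counts are no finding. Among 12934 other protein-coding genes with at least 0.5 CPM on average, those most like Cd3e over the 20 livers were Gabra3 (r = 0.86), Pkia (r = 0.80), Poc1b (r = 0.76), Exosc7 and Adamdec1 (r = 0.75 each). Those most like Ncr1 were Itga8 (r = 0.80), Mrc1 (r = 0.76), C1qa and Rpl36a (r = 0.73 each) and Gsn (r = 0.72), of which Mrc1 and C1qa are macrophage genes. None of them was a further gene of the T or NK cell lists.

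Other genes of the same cells were taken as lists. Of 25 other T cell genes, 17 were tested, and their median log2 fold change with CORT under isotype was -1.21. The 5 with the highest level per exon length are given here, and none of these 5 was called by edgeR. The constant regions of the T cell receptor beta chain, Trbc1 and Trbc2, which share 28.7% and 30.9% of their 100-base words with each other, gave -1.72 (SE 0.77, edgeR adjusted p = 0.256) and -1.73 (SE 0.61, edgeR adjusted p = 0.122). That of the alpha chain, Trac, gave -1.24 (SE 1.07, edgeR adjusted p = 0.675). Zap70, the kinase recruited by phosphorylated CD3 chains, gave -0.60 (SE 0.24, edgeR adjusted p = 0.180), and Tcf7, a transcription factor of T cells, gave -0.88 (SE 0.43, edgeR adjusted p = 0.313).

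With αACBP under CORT, the median over the 17 genes was 0.64. Zap70 gave 0.64 (SE 0.24, edgeR adjusted p = 0.223), Trac 0.85 (SE 1.07, edgeR adjusted p = 0.854) and Trbc1 0.81 (SE 0.76, edgeR adjusted p = 0.772). Trbc2 gave 0.61 (SE 0.60, edgeR adjusted p = 0.788) and Tcf7 0.21 (SE 0.43, edgeR adjusted p = 0.934).

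Of 28 other NK cell and cytotoxic genes, 16 were tested. With CORT under isotype 1 was called lower, beside 1.43% of all genes tested. At unadjusted p it was 6, beside 4.09%, and the median log2 fold change of the 16 was -1.62. Tyrobp, the adaptor of activating NK receptors that myeloid cells express as well, was the gene called, with -1.32 (SE 0.34, edgeR adjusted p = 0.0292). The lymphocyte chemokine Ccl5 gave -1.54 (SE 0.67, edgeR adjusted p = 0.234), the protease gene Ctsw -2.72 (SE 0.77, edgeR adjusted p = 0.0503) and the granule gene Nkg7 -1.27 (SE 0.97, edgeR adjusted p = 0.614). S1pr5, a sphingosine phosphate receptor used by NK cells in leaving tissue, went the other way at 0.79 (SE 0.31, edgeR adjusted p = 0.172). With αACBP under CORT, 0 of the 16 were called, beside 0.504% of all genes called higher. At unadjusted p 3 were higher, beside 2.59%. The median was 1.04, with Tyrobp at 1.18 (SE 0.34, edgeR adjusted p = 0.0899).

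Of 18 genes of signalling and chemokines that T and NK cells share with other leukocytes, 17 were tested. With CORT under isotype 3 were called lower, beside 1.43% of all genes tested. The 3 were the pan-leukocyte phosphatase Ptprc (CD45), the integrin Itgal and the kinase Fyn, named after their values were seen. Ptprc averaged 19.4 ± 4.61 CPM with vehicle and 6.73 ± 2.41 CPM with CORT, a log2 fold change of -1.53 (SE 0.26, edgeR adjusted p = 0.000936). Itgal gave -1.32 (SE 0.29, edgeR adjusted p = 0.00950) and Fyn -1.18 (SE 0.28, edgeR adjusted p = 0.0166). The 2 most abundant genes of this list, Il15ra and Lcp1, gave 0.21 (SE 0.20, edgeR adjusted p = 0.714) and -0.22 (SE 0.18, edgeR adjusted p = 0.652).

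With αACBP under CORT, 3 genes of this list were called higher, beside 0.504% of all genes tested. The 3 were Ptprc (1.18, SE 0.26, edgeR adjusted p = 0.0173), Itgal (1.25, SE 0.29, edgeR adjusted p = 0.0277) and Cxcl9 (2.43, SE 0.57, edgeR adjusted p = 0.0453). Cxcl9 encodes a chemokine that attracts activated T and NK cells. The median over the 17 genes was 0.48.

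Markers of other cells moved with these comparisons, and their part in the member values was not tested. With CORT under isotype, 7 of 10 Kupffer cell genes were called lower, beside 1.43% of all genes tested. The summed level of the 10 was 464 to 921 CPM in Isotype + Vehicle and 155 to 452 CPM in Isotype + CORT livers. Clec4f, a Kupffer cell lectin, gave -1.01 (SE 0.24, edgeR adjusted p = 0.0150). Of 8 B cell genes, 1 was called lower, Cd22, beside the same 1.43%, and the sums were 24.6 to 44.8 CPM and 1.89 to 17.7 CPM. Of the neutrophil genes 1 of 3 tested was called lower (Csf3r), again beside 1.43%. Of 8 dendritic cell, 6 red cell, 6 sinusoidal endothelial and 7 hepatocyte genes tested, 0 were called in either direction, beside 312 of all 16071 genes. This does not show that they were unchanged. All 8 dendritic cell genes had negative log2 fold changes (median -0.75). The endothelial gene Pecam1 (-0.93, edgeR adjusted p = 0.0463) and the hepatocyte gene Apob (0.71, edgeR adjusted p = 0.0450) missed only the fold limit. These 2 genes were named after their values were seen. With αACBP under CORT, 3 of 10 Kupffer cell genes were called higher, beside 0.504% of all genes tested, and the sum was 591 to 819 CPM. The B cell sum was 6.05 to 35.2 CPM with 0 of 8 genes called.

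**Figure D4:**
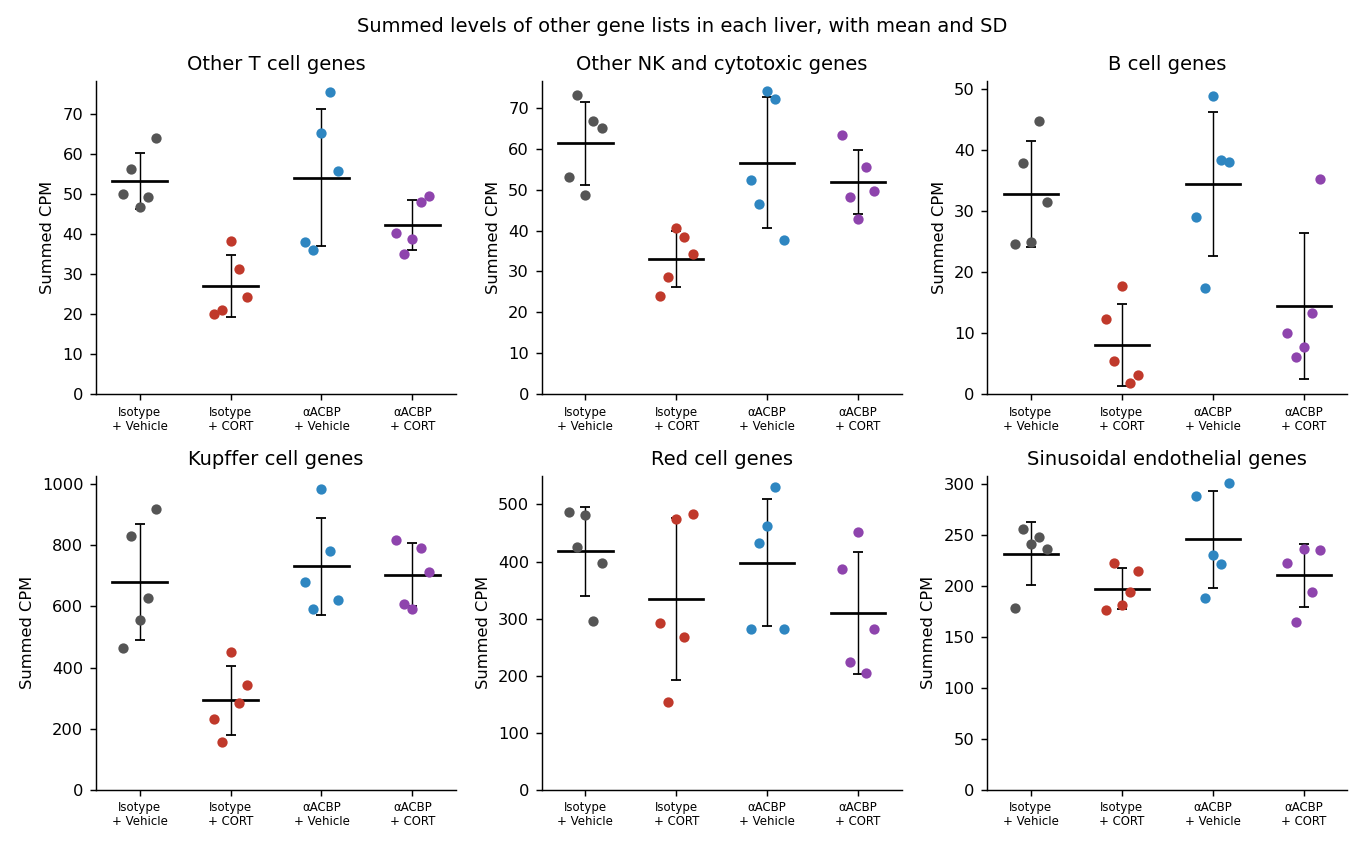
Summed CPM of 6 other gene lists in each liver (points) of the 4 groups, with the mean (thick bar) and SD (thin bar), each panel with its own linear axis starting at 0. The Isotype + CORT livers lie under all Isotype + Vehicle livers for the other T cell, other NK and cytotoxic, B cell and Kupffer cell genes, the last at 155 to 452 against 464 to 921 CPM, and overlap with them for the red cell and sinusoidal endothelial genes. Abundant genes weigh most in a sum. Zap70 of the T cell list averaged 18.2 CPM in Isotype + Vehicle and 12.0 CPM in Isotype + CORT livers. Tyrobp of the NK list, which myeloid cells express as well, averaged 18.7 and 7.48 CPM.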

How the data were processed

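RNA of 20 livers was sequenced by the authors as read pairs, aligned with HISAT2 and counted with HTSeq-count (union mode, with non-unique features). The deposited table holds the raw, unnormalized counts of 48440 genes in each liver. The methods name GRCm39 and the submitters' processing notes mm10, so no coordinate was taken from the table. The annotation release and strand setting are not given in the sources used here. Pairs on genes were 36.6% to 40.4% of all lines of the table per liver, and lines that name no gene were left out.

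The 9 members and all lists were chosen with earlier results of these data known. Each column was assigned to a liver by its name, and 0 were left over. In R 4.3.3, the 16071 genes passing edgeR's filter were tested with the quasi-likelihood test of edgeR 4.0.16 (TMM, robust, 1 model of the 4 groups) and adjusted by Benjamini-Hochberg over all of them. SE is the fold change divided by the root of the F statistic. On counts drawn for CORT against vehicle under isotype over 16071 genes, 200 of them changed, edgeR recovered 52.0% of these, with 2.80% of calls false, DESeq2 57.5% with 14.2% false and voom 48.5% with 3.96% false. Part of the 200 were changed by 2-fold only, the call limit itself. They were drawn from genes of all levels, so these rates do not describe genes as scarce as the members. DESeq2 1.42.0 and voom of limma 3.58.1 were alternatives, besides other size factors, filters, call limits, sample sets, a replicate block and each liver left out. Single genes were compared by exact permutation tests (log2 CPM, prior count 0.5), left unadjusted because the genes were chosen. Exon lengths came from GENCODE M39 (GRCm39), which matched 91.4% of the identifiers. Named genes were all members, the 5 tested genes with the highest level per exon length of the 2 lists of other T and other NK cell genes, the 2 most abundant tested genes of the other lists, of which some are left unnamed here, the 5 genes most like Cd3e and the 5 most like Ncr1. Of the list of other T cell genes, 1 gene and the counts of calls that rest on it are not reported here.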

Additional observations from a re-analysis of the deposited data

Results flagged for a closer look

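Within groups of 5 livers, 1 liver stood apart from the other 4 by Dixon's criterion in 8 of 44 combinations of a gene or sum with a group. Of the 44 combinations, Ncr1 in Isotype + CORT was at 0 in all livers, so it could not be checked and is not among the 8. The rate of about 1 in 20 by chance holds for normally distributed values. Here many values are 0, and 4 livers at 0 beside 1 with counts are always flagged. The number of flags can therefore not be set against that rate. In Isotype + CORT, liver 3 was the only one with Cd3d counts, at 0.267 CPM, and liver 4 the only one with Cd4 counts, at 0.652 CPM. Liver 3 of that group was also high for Cd8a, at 0.427 CPM against at most 0.0644 CPM in the others. In Isotype + Vehicle, liver 4 was high for Cd3g, at 2.88 CPM against at most 1.42 CPM, and was the only one without Gzma, at 0 CPM against at least 1.26 CPM. In αACBP + Vehicle, liver 3 was high for Cd4, at 2.35 CPM against at most 0.335 CPM, and for Ncr1, at 0.724 CPM against at most 0.161 CPM, and liver 5 was high for Cd8a, at 1.83 CPM against at most 0.503 CPM. Liver 5 of αACBP + Vehicle was the library with the highest TMM factor, 1.29. It also had the lowest sum of the hepatocyte genes, 38187 CPM, and the lowest median correlation with its group, 0.82. The cause of these values was not tested.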

How the results depend on the processing

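For CORT against vehicle under isotype, the fold changes of the tested members were under 0 in 48 of 48 values from other settings and in 70 of 70 with 1 liver left out. For αACBP against isotype under CORT they were above 0 in 46 of 46 and in 69 of 70. Counts of members called depended on the call limit and the tool. For CORT under isotype 0 became 1 with DESeq2 (Cd3d, log2 fold change -4.59) and 3 at unadjusted p, and for αACBP under CORT 0 became 1 at unadjusted p. With 10 counts required in every liver no member could be tested. The exact permutation test of Cd4 for αACBP under CORT gave an unadjusted p of 0.0476 with a prior count of 0.5. With a prior count of 1 it gave 0.127 (difference 1.98).

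In the comparisons where the members lay near 0, signs turned. For CORT under αACBP, Gzma became -0.018 with DESeq2 size factors and -0.017 with the DESeq2 test, -0.00059 without the 20 most abundant genes, -0.0035 with only the 2 groups and -0.43 with voom. Voom also gave 0.19 for Cd3d, 0.70 for Cd3g and 0.11 for Klrb1c, and for αACBP under vehicle -0.074 for Lck and -0.78 for Klrb1c. The ratio of the CD3 chains to Ncr1 and Klrb1c for CORT under αACBP was -0.14. The cause was not tested.

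The number of all genes called for CORT under isotype was 312, and 527 with DESeq2, 890 at unadjusted p and 514 without a fold limit. For αACBP under CORT it was 96, and 211, 520 and 154 in that order, 27 with only the 2 groups and 57 with voom. For CORT under αACBP it was 34, and 112 with DESeq2, 395 at unadjusted p and 155 with voom. For αACBP under vehicle it was 209, and 537 at unadjusted p and 826 without a fold limit. For αACBP + CORT against Isotype + Vehicle it was 11, and 56 with DESeq2, 223 at unadjusted p, 62 with only the 2 groups and 150 with voom. For the interaction it was 23, and 35 with DESeq2 size factors, 187 with DESeq2, 53 without a filter, 60 with 10 counts in every liver, 41 without the 20 most abundant genes, 791 at unadjusted p and 49 with voom.

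With 1 liver left out, these counts ranged from 205 to 421, 52 to 191, 5 to 153, 87 to 343, 1 to 23 and 6 to 101 in the same order, and 0 members were called throughout. For αACBP under vehicle the member values ranged from -0.72 to 0.059 for Cd3g, -0.00022 to 0.53 for Lck and -0.28 to 0.51 for Klrb1c. For αACBP under CORT, Gzma ranged from -0.028 to 1.31. For CORT under αACBP the ranges were -0.068 to 1.22 for Cd3e, -1.50 to 0.68 for Cd3d, -0.48 to 0.21 for Cd3g, -0.98 to 2.63 for Cd4, -0.80 to 0.0063 for Klrb1c and -0.51 to 0.35 for Gzma. The T cell sum for αACBP under vehicle differed by -1.30 to 0.305 CPM. The Cd3e to Ncr1 ratio ranged from -0.45 to 1.59 for αACBP under vehicle, -0.95 to 0.40 for αACBP under CORT and -0.020 to 1.81 for CORT under αACBP.

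Replicate numbers did not pair the livers. Over 30 pairs with the same number the correlation of deviations lay between -0.096 and 0.086, and 3 of 20 livers correlated best with their own number. With the replicate block the genes called numbered 284, 90, 36, 185, 10 and 20, with 0 members, and for CORT under αACBP the block gave 0.21 for Cd3d, 0.14 for Cd3g and 0.049 for Klrb1c, and for αACBP under vehicle -0.050 for Klrb1c.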
